A study of Mus musculus with 46 samples.

Results

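Receptors of natural killer (NK) cells were followed in mouse MC-38 tumors in which PD-1 was blocked by antibody or deleted by a conditional allele. The set holds 10 genes of the 48795 in the FPKM table, chosen by name as killer-cell lectin-like receptors or NK markers: Klrc1, Klrc2, Klrd1, Klrk1, Klrb1c, Klrg1, Klre1, Ncr1, Nkg7 and Cd7. All 10 are in the table, and their values were read in all 46 samples, of which 43 are tumors and 3 are cultures of the MC-38 line. Most of these genes are also used by activated CD8 T cells, and Ncr1 is the member most restricted to NK cells, so each member was read against Ncr1 and against Cd8a, the coreceptor of cytotoxic T cells.

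NK cells and cytotoxic T cells share much of one killing machinery but find their targets in different ways. T cells read peptide on classical MHC molecules through a rearranged receptor. NK cells sum signals from germline receptors, many of them C-type lectins encoded side by side in the NK gene complex. Klrd1 (CD94) pairs with Klrc1 (NKG2A) to form an inhibitory receptor, or with Klrc2 (NKG2C) to form an activating one, and both pairs read the nonclassical MHC molecule Qa-1, product of H2-T23. Klrk1 (NKG2D) is an activating receptor for stress-induced ligands and signals through the adaptors DAP10 (Hcst) and DAP12 (Tyrobp). Klre1 is a lectin-like partner of the Klri receptors, Klrb1c encodes the NK1.1 antigen of C57BL/6 mice, and Klrg1 is an inhibitory receptor for cadherins. Ncr1 (NKp46) is an activating immunoglobulin-like receptor. Nkg7 is a membrane protein of cytotoxic granules, and Cd7 is an immunoglobulin-family protein of T, NK and progenitor cells. CD8 T cells can gain Klrc1, Klrd1, Klrk1, Klre1 and Nkg7 when they are activated, and killer-like receptors also occur on gamma-delta and other innate-like T cells.

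MC-38 is a colon carcinoma line of C57BL/6 origin, transplanted under the skin of female mice aged 8 to 10 weeks. The mice given PD-1 antibody were wild type, which the methods name as C57BL/6NTac. Beside the 3 cultures there were 3 tumors labelled baseline, whose day is not given in the sources used here. After 1 dose of the PD-1 antibody muDX400 (5 mg/kg) or of isotype control there were 5 tumors in each group, labelled day 4 of treatment (day 11 after implant). After 2 doses there were again 5 and 5, labelled day 8 (day 15 after implant). In the genetic model, 10 tumors came from PD-1cKO mice (Rosa26-creERT2, Pdcd1 fl/fl) and 10 from WT littermates, and both groups received tamoxifen at 40 mg/kg on 5 consecutive days. The label places these tumors at day 28 and the methods at day 22. Since creERT2 is driven from Rosa26, the deletion is not restricted to one cell type. Every sample is bulk tissue, so fewer cells of a type and less RNA per cell cannot be told apart in any value below.

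Levels are FPKM (fragment counts divided by transcript length and by library size), which do not show the depth of single samples, and mapped reads are stated only as a range for the whole study. Short noncoding RNAs held 30.2% to 54.6% of the FPKM in WT tumors and 31.1% to 66.5% in PD-1cKO tumors, against at most 0.0746% in every other sample, so levels were not compared between the antibody study and the PD-1cKO study. Mitochondrial genes held 54.6% of the FPKM in 1 tumor, isotype control replicate 1 after 1 dose, where the median of its group was 3.94%. Whole-gene Pdcd1 was higher under the PD-1cKO label (median 8.29 FPKM, WT 3.01 FPKM, limma adjusted p 0.000658), and since only exons 2 and 3 are removed, it does not check the label. The sample identifiers fall into runs of neighbouring numbers whose meaning the labels do not state. One run held 7 PD-1cKO and no WT tumors, another held 1 and 9, and the last held 2 and 1. All 10 tumors of the 2-dose comparison shared 1 run.

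Of the 10 genes, 7 lie on chromosome 6 (GRCm38). Klre1 (129577905 to 129585827, plus strand), Klrd1 (129591782 to 129598775, plus), Klrk1 (129610323 to 129623864, minus), Klrc2 (129647496 to 129660689, minus) and Klrc1 (129666015 to 129678973, minus) stand within 101 kb of each other. Klrb1c (128778485 to 128789215, minus) and Klrg1 (122270596 to 122282882, minus) are farther off on the same chromosome. Ncr1 (4337724 to 4345164, plus) and Nkg7 (43437073 to 43438249, plus) are on chromosome 7, and Cd7 (121036747 to 121039418, minus) is on chromosome 11. All 10 are protein coding. Klrb1c overlaps Gm44511 on its own strand, and Cd7 overlaps the antisense gene Gm11775, which the stranded libraries can separate from it.

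Klrc1 and Klrc2 are near copies, and reads of 50 bases can fall in sequence that both share. Of the 50-base stretches in Klrc1 transcripts, 36.6% also occur in Klrc2, and 12.4% of those in Klrc2 occur in Klrc1, so the split between the inhibitory and the activating gene depends on how the authors' program shared such reads. Counting every other gene, 38.6% of the Klrc1 and 16.3% of the Klrc2 stretches are shared. For Klrb1c, 12.4% of the stretches occur in Gm44511, and 17.0% in any other gene. For Klre1 0.28% are shared, and for the other 6 members none. The last 180 coding bases of the pair, from exons 5 and 6 (Klrc1 chr6:129674862-129675364, Klrc2 chr6:129656374-129656876, GRCm38, minus strand, introns left out), show how alike they are. Capitals mark the 5 bases that differ, and the 100 bases that follow the last of them are identical.
Klrc1: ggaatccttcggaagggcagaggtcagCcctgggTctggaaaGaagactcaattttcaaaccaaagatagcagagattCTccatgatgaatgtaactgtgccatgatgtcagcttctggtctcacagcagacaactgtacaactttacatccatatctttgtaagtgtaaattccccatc
Klrc2: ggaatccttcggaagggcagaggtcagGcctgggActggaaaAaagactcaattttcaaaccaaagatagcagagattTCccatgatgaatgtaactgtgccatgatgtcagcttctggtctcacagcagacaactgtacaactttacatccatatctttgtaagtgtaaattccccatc

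The bases before the start of 4 members are shown because their ratios to Cd8a are set side by side below, with small shifts for Klrc1 and Nkg7 and lower ratios for Klrk1 and Ncr1. They come from RefSeq (GRCm38.p6) and stop where the annotated gene begins. Entries were found for 7 of the 10 members, and those of Klrb1c and Klre1 held no bases before the annotated gene. Capitals mark a motif found by search on both strands of the 250 bases before the RefSeq start. The motifs searched were a T-box site (AGGTGTGA), a RUNX site (TGTGGTT), an ETS core (AGGAAGT) and a STAT site (TTCNNNGAA), which may overlap each other. Klrc1 (chr6:129678974-129679223, minus strand) held none of them. Klrk1 (chr6:129623865-129624114, minus) and Ncr1 (chr7:4337465-4337714, plus) each held the RUNX letters, and Nkg7 (chr7:43436888-43437072, plus) the STAT letters.
Klrc1: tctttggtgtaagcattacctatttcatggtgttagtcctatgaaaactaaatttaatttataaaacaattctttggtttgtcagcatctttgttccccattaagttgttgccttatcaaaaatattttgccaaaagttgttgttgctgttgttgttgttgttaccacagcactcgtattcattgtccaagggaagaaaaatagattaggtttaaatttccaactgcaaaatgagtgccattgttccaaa
Klrk1: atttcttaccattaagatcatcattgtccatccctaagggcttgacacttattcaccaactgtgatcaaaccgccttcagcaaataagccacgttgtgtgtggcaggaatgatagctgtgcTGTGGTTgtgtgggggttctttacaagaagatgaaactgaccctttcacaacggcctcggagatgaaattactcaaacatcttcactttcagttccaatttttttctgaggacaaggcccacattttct
Nkg7: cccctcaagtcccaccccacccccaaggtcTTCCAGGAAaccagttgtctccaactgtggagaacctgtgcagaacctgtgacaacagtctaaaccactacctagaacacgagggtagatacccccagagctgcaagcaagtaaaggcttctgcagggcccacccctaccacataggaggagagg
Ncr1: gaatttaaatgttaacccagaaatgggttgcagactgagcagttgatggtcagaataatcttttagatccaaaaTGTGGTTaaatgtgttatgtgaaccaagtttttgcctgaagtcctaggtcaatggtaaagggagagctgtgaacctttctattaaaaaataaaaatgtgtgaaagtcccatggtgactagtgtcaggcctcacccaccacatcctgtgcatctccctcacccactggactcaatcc

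Nkg7 also held the T-box letters, 14 to 7 bases before its RefSeq start and outside the part shown. Over the members with an entry, the RUNX letters occurred in 3 (Klrk1, Klre1 and Ncr1), the T-box and the STAT letters in 1 each, and the ETS letters in 0. The Klre1 match (chr6:129577984-129577990) lies inside the annotated gene. Among all 32851 promoter entries of the same length, 4.4% held the RUNX letters, 1.12% the T-box, 7.02% the STAT and 7.69% the ETS letters. These matches are descriptions of letters in a window and do not mark bound sites.

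The tumor line itself carried almost no RNA of these receptors. In the 3 cultures Klrc1, Klrb1c, Ncr1, Nkg7 and Cd7 were listed at 0 FPKM, and the highest value of any member was 0.0647 FPKM (Klrd1 in 1 culture). Over the 43 tumors of both studies, Nkg7 had a median level of 8.81 FPKM (range 1.19 to 66.4), Klrk1 of 4.93 (1.46 to 21.5), Klrd1 of 4.10 (0.937 to 31.3) and Klrc1 of 3.0 (0.731 to 26.4). The order of these genes differed by group: Klrk1 had a higher median than Klrd1 and Klrc1 in the 2-dose antibody groups (18.8, 17.6 and 12.9 FPKM with PD-1 Ab), and a lower one in PD-1cKO tumors (3.87, 9.87 and 4.98 FPKM). The other 6 members were low: Klre1 had a median of 0.859 FPKM, Cd7 of 0.815, Klrb1c of 0.711, Ncr1 of 0.463, Klrg1 of 0.422 and Klrc2 of 0.336. Ncr1 was under 1 FPKM in 40 of the 43 tumors, Klrg1 in 36, and Klrc2 and Klrb1c in 34 each.

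Among the antibody groups, 9 of the 10 members had their highest group median after 2 doses of PD-1 Ab, and Klrb1c had it after 1 dose (0.950 FPKM, 0.846 FPKM after 2 doses). Klrc1 medians ran from 1.41 FPKM (isotype control, 2 doses) through 1.60 (isotype control, 1 dose), 1.94 (baseline) and 6.14 (PD-1 Ab, 1 dose) to 12.9 (PD-1 Ab, 2 doses), and each neighbour overlapped the next. Klrd1 medians ran over 2.43, 2.54, 2.79, 7.84 and 17.6 FPKM and Nkg7 medians over 5.91, 5.22, 7.48, 16.3 and 41.4 FPKM for the same groups, and for both genes every baseline tumor lay below every tumor given 1 dose of PD-1 Ab, while the other neighbours overlapped. Klrk1 medians were 4.47, 5.79, 4.52, 14.2 and 18.8 FPKM in the same groups, Klre1 medians 0.602, 0.840, 0.859, 1.38 and 2.81 FPKM, and Cd7 medians 0.813, 0.815, 0.493, 1.73 and 3.32 FPKM, with overlap between every pair of neighbours in the order of their medians. Klrc2 medians were 0.241, 0.30, 0.119, 0.313 and 1.22 FPKM and Klrg1 medians 0.221, 0.208, 0.211, 0.695 and 1.06 FPKM, and of their neighbours only the 2-dose isotype control and the 1-dose PD-1 Ab tumors did not overlap, for Klrg1 (0.182 to 0.340 and 0.352 to 0.859 FPKM). Ncr1 medians stayed within 0.334 to 0.797 FPKM, with baseline at 0.683, and neighbouring groups overlapped throughout. The plot of member levels by sample shows the same order.

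**Figure D1:**
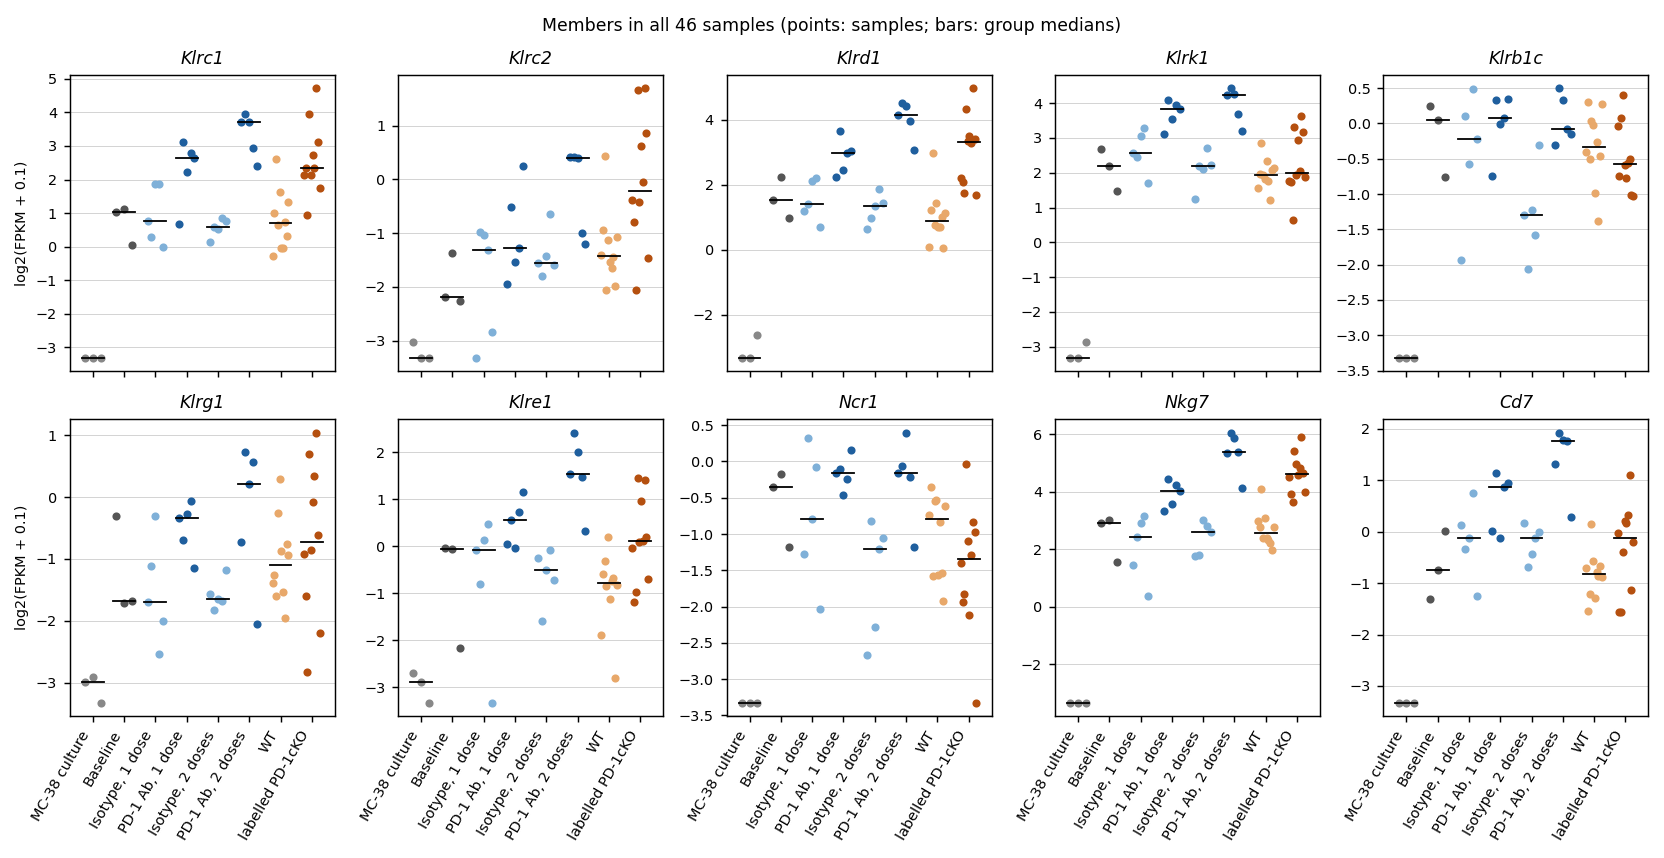
FPKM of each of the 10 members (one panel each, log2 axis of FPKM + 0.1) in the 8 groups, with a point per sample and a bar at the group median. Within the antibody study the medians of Nkg7, Klrd1, Klrc1 and Klrk1 are highest after 2 doses of PD-1 Ab, single PD-1cKO tumors reach 26.4 FPKM of Klrc1 and 31.3 FPKM of Klrd1, the medians of Ncr1 and Klrb1c stay below 1 FPKM in every group, and the cultures sit at or near 0.

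The first comparison asked which receptors differed after 2 doses of PD-1 Ab. The inhibitory pair Klrc1 and Klrd1, the granule protein Nkg7, the activating receptor Klrk1, Klre1 and Cd7 rose, by 1.64 to 2.96 on the log2 scale. NK-restricted Ncr1, the NK1.1 gene Klrb1c, Klrc2 and Klrg1 had higher means with PD-1 Ab, by 1.21 to 1.36, and did not pass. A gene was called at a limma adjusted p under 0.01, over all genes tested, and a change of at least 2-fold. By that rule 6 of the 10 members were higher, where 5.03% of the 15062 genes tested were, and 4 of the 10 (Klrc2, Klrb1c, Klrg1 and Ncr1) passed the filter on low values only through the treated group.

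Klrc1 was 1.01, 1.41, 1.34, 1.70 and 1.61 FPKM in the 5 isotype control tumors and 12.9, 15.4, 13.0, 7.51 and 5.18 FPKM in the 5 PD-1 Ab tumors. Klrd1, its partner, was 1.45, 1.88, 2.43, 3.53 and 2.59 FPKM in the controls and 17.6, 22.8, 21.2, 15.5 and 8.25 FPKM with PD-1 Ab. For both genes every treated tumor was above every control tumor, and replicate 5 was the lowest of the treated tumors. The log2 fold change was 2.76 for Klrc1 (SE 0.28, 95% interval 2.15 to 3.38, limma adjusted p 0.000806) and 2.77 for Klrd1 (SE 0.29, 2.14 to 3.40, adjusted p 0.000806). Klrc2, the activating partner of CD94, was 0.241, 0.186, 0.271, 0.538 and 0.232 FPKM in the controls and 1.24, 1.23, 1.22, 0.398 and 0.336 FPKM with PD-1 Ab. Here 3 treated tumors were above all controls, and the other two lay among them. The log2 difference of 1.21 (SE 0.42) had an adjusted p of 0.0527 by limma. As a percentage of Klrc1 FPKM in the same tumor, Klrc2 had a median of 20.1% in the controls and 7.98% with PD-1 Ab.

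Nkg7 was the most abundant member, with 3.32, 3.40, 8.06, 6.88 and 5.91 FPKM in the controls and 41.0, 66.4, 57.8, 41.4 and 17.5 FPKM with PD-1 Ab. The lowest treated tumor, replicate 5, was above the highest control. Nkg7 had a log2 fold change of 2.96 (SE 0.36, 95% interval 2.18 to 3.73, limma adjusted p 0.000885). Klrk1 was 2.25, 4.47, 4.19, 6.44 and 4.52 FPKM in the controls and 18.8, 21.5, 19.2, 12.7 and 9.00 FPKM with PD-1 Ab, again without overlap, and its log2 fold change was 1.87 (SE 0.29, adjusted p 0.00171). Klre1 went from 0.742, 0.234, 0.602, 0.848 and 0.505 FPKM to 2.81, 5.24, 3.89, 2.68 and 1.16 FPKM (log2 fold change 2.18, SE 0.39, adjusted p 0.00365). Cd7 went from 1.02, 0.523, 0.636, 0.813 and 0.898 FPKM to 2.38, 3.71, 3.34, 3.32 and 1.13 FPKM (1.64, SE 0.32, adjusted p 0.00507). For both genes the groups did not overlap, but these calls had the highest adjusted p of the 6, and each was lost when single tumors were left out. The Klre1 adjusted p was 0.0113 to 0.0143 without isotype control replicate 5 or without PD-1 Ab replicate 1, 2 or 3. The Cd7 call was lost without isotype control replicate 2, 3 or 5 or without PD-1 Ab replicate 1, 2, 3 or 4, with adjusted p up to 0.0193.

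Ncr1, the NK-restricted member, was 0.0571, 0.468, 0.107, 0.334 and 0.384 FPKM in the controls and 0.797, 0.856, 1.22, 0.764 and 0.344 FPKM with PD-1 Ab. Treated replicate 5 lay inside the control range, and the other 4 lay above it. The log2 difference was 1.36 (SE 0.44, 95% interval 0.40 to 2.32, limma adjusted p 0.042). Klrb1c was 0.308, 0.140, 0.328, 0.235 and 0.711 FPKM in the controls and 0.711, 1.32, 1.15, 0.846 and 0.801 FPKM with PD-1 Ab, so the groups touched without crossing, and its log2 difference was 1.35 (SE 0.34, adjusted p 0.0175). Klrg1 was 0.182 to 0.340 FPKM in the controls and 0.508, 1.56, 1.06, 1.38 and 0.142 FPKM with PD-1 Ab (1.33, SE 0.49, adjusted p 0.068). Treated replicate 5 was below every control for Klrg1, and without that tumor the gene was called (log2 fold change 1.78, adjusted p 0.00265). In 7 of the 10 members, all but Klrc2, Klrg1 and Ncr1, every treated tumor was above every control, which held for 9.23% of all genes tested.

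**Figure D2:**
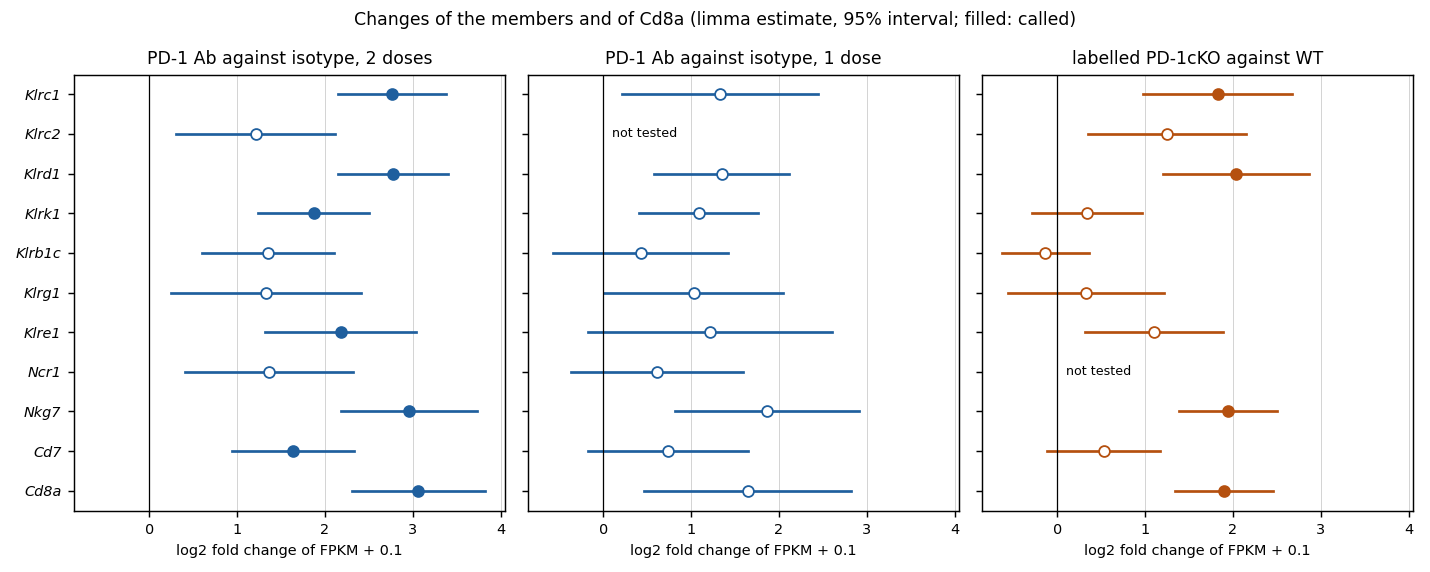
Log2 fold change of each member with its 95% interval from limma, for 1 dose and 2 doses of PD-1 Ab against isotype control and for PD-1cKO against WT, with Cd8a as a reference, and filled points are called. After 2 doses the values lie between 1.21 (Klrc2) and 2.96 (Nkg7), and in the PD-1cKO model Klrc1, Klrd1 and Nkg7 stand apart from Klrk1 and Klrb1c.

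After 1 dose no member passed the test, and Nkg7 and Klrd1 had the largest differences among the 9 members tested. Nkg7 was 2.67, 5.22, 7.36, 8.81 and 1.19 FPKM in the 5 isotype control tumors and 9.94, 21.6, 11.8, 18.9 and 16.3 FPKM with PD-1 Ab. Klrd1 was 2.19, 2.54, 4.27, 4.48 and 1.52 FPKM in the controls and 4.60, 12.3, 5.37, 7.84 and 8.12 FPKM with PD-1 Ab. These were the 2 members whose groups did not overlap, as for 3.59% of all genes. Their log2 differences were 1.86 for Nkg7 (SE 0.48, 95% interval 0.82 to 2.91, limma adjusted p 0.287) and 1.35 for Klrd1 (SE 0.35, adjusted p 0.317). Limma called 0% of the 14556 genes tested, with 895 at an unadjusted p under 0.05. Klrc1 was 1.60, 1.11, 3.55, 3.53 and 0.893 FPKM in the controls and 1.48, 8.50, 4.59, 6.77 and 6.14 FPKM with PD-1 Ab, where replicate 1 stayed inside the control range (log2 difference 1.33, SE 0.51, adjusted p 0.69). Klrk1 was 5.79, 5.36, 8.16, 9.75 and 3.18 FPKM in the controls and 8.47, 16.9, 11.5, 15.2 and 14.2 FPKM with PD-1 Ab, with 4 treated tumors above every control (1.09, SE 0.31, adjusted p 0.398). Of the low members, Klre1 differed by 1.21 (adjusted p 0.825), Klrg1 by 1.03 (adjusted p 0.803) and Cd7 by 0.73 (adjusted p 0.825), while Klrc2 was below the filter (0.89, exact permutation p 0.198). Ncr1 differed by 0.61 (SE 0.45, adjusted p 0.825), with 0.313, 1.15, 0.478, 0.849 and 0.143 FPKM in the controls and 0.794, 0.832, 0.625, 0.747 and 1.02 FPKM with PD-1 Ab. Klrb1c, with the smallest difference of the 9 members tested, gave 0.43 (adjusted p 0.825), where the median over all genes tested was 0.26.

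The tumor rich in mitochondrial RNA is one of these controls. Without it, Nkg7 differed by 1.72 (adjusted p 0.119), Klrd1 by 1.26 (adjusted p 0.108) and Ncr1 by 0.48, all by limma. Of the 5 controls, 3 came from a run of identifiers with no treated tumor. Within the other run, the 2 controls had 1.19 and 8.81 FPKM of Nkg7 where the 5 treated tumors had 9.94 to 21.6 FPKM. Whether the second dose added to the first was tested as a difference of differences within the antibody study. Klrc1 and Klrd1 each differed by 1.43 more after 2 doses (adjusted p 0.623), Nkg7 by 1.09 more (adjusted p 0.626) and Ncr1 by 0.75 more (adjusted p 0.651). No member passed, and limma called 0% of the 15289 genes in this contrast, with 1182 at an unadjusted p under 0.05.

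The PD-1cKO model asked the same of genetic loss. Klrd1, Nkg7 and Klrc1 rose, by 1.83 to 2.04 on the log2 scale. Klrk1, which had risen with antibody, differed by 0.34 and did not pass, and Klrb1c and Ncr1 had slightly lower means under the PD-1cKO label. Of the 9 members that passed the filter, 4 of them only through the PD-1cKO group, 3 were called higher, where 4.2% of the 15075 genes tested were. The median difference of all genes tested was -0.20, and it was -0.04 after median-of-ratios scaling.

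Klrd1 ran from 0.937 through a median of 1.76 to 7.83 FPKM in the 10 WT tumors, and from 3.11 through 9.87 to 31.3 FPKM in the 10 PD-1cKO tumors. Klrc1 ran from 0.731 through 1.51 to 5.95 FPKM in WT and from 1.82 through 4.98 to 26.4 FPKM in PD-1cKO. Nkg7 ran from 3.80 through 5.94 to 17.1 FPKM in WT and from 12.5 through 24.3 to 59.1 FPKM in PD-1cKO. WT replicate 3 was the highest WT tumor for each of them. The other 9 WT tumors reached 2.62 FPKM of Klrd1 and 8.50 FPKM of Nkg7, below every PD-1cKO tumor, and 3.0 FPKM of Klrc1, which still overlapped. For Nkg7 7 of the 10 PD-1cKO tumors lay above every WT tumor, for Klrd1 6 and for Klrc1 4. No member separated the groups fully, and 0.643% of all genes tested did. Log2 fold changes were 2.04 for Klrd1 (SE 0.40, 95% interval 1.20 to 2.87, limma adjusted p 0.00143), 1.94 for Nkg7 (SE 0.27, 1.38 to 2.50, adjusted p 0.000414) and 1.83 for Klrc1 (SE 0.41, 0.98 to 2.67, adjusted p 0.00272).

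The run of identifiers almost coincides with the label here. With the run as a covariate the log2 fold changes were 2.87 for Klrd1, 2.49 for Nkg7 and 2.76 for Klrc1, with limma adjusted p of 0.0257, 0.0254 and 0.0257, so none was called. Within the run that held 9 WT tumors, the single PD-1cKO tumor had 31.3 FPKM of Klrd1, above all 9. Within the run that held 2 PD-1cKO tumors and 1 WT tumor, Klrd1 was 3.11 and 10.4 FPKM against 2.11 FPKM, and Nkg7 15.8 and 24.7 FPKM against 6.75 FPKM. The direction of these genes was thus the same within both runs that can be read, on 1 and on 2 deleted tumors.

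Klrk1 ran from 2.22 through a median of 3.75 to 7.17 FPKM in WT and from 1.46 through 3.87 to 12.3 FPKM in PD-1cKO tumors, a log2 difference of 0.34 (SE 0.30, limma adjusted p 0.362). The medians were close, with 4 PD-1cKO tumors above every WT tumor and 5 below the WT median. Over the alternatives the Klrk1 difference ran from 0.0004 to 1.13 and was called in none. Within the run that held 9 WT tumors, the single PD-1cKO tumor had 12.3 FPKM of Klrk1, above all 9. Within the run that held 2 PD-1cKO tumors and 1 WT tumor, Klrk1 was 3.55 and 8.91 FPKM against 4.30 FPKM. Klrc2 ran from 0.140 through 0.273 to 1.24 FPKM in WT and from 0.139 through 0.768 to 3.15 FPKM in PD-1cKO tumors (log2 difference 1.25, SE 0.43, adjusted p 0.025). Klre1 ran from 0.0436 through 0.484 to 1.05 FPKM in WT and from 0.341 through 0.977 to 2.62 FPKM in PD-1cKO tumors (1.10, SE 0.38, adjusted p 0.0245). Neither was called. Without PD-1cKO replicate 3 Klrc2 was called (1.47, adjusted p 0.00781). Cd7, at medians of 0.467 FPKM in WT and 0.826 FPKM in PD-1cKO tumors, differed by 0.53 (adjusted p 0.166), and Klrg1, at 0.369 and 0.504 FPKM, by 0.33 (adjusted p 0.546).

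Neither of the NK-defining members passed a test, and both had lower means under the PD-1cKO label. Ncr1 ran from 0.164 through a median of 0.480 to 0.683 FPKM in WT and from 0 through 0.295 to 0.874 FPKM in PD-1cKO tumors. It passed the filter in neither group and was read by a permutation test of its log2 values, which gave a difference of -0.46 (2-sided p 0.183, 100000 resamples). Klrb1c ran from 0.284 through 0.693 to 1.13 FPKM in WT and from 0.392 through 0.570 to 1.23 FPKM in PD-1cKO. Its log2 difference was -0.14 (SE 0.24, 95% interval -0.63 to 0.36, limma adjusted p 0.656), and 0.01 after median-of-ratios scaling. For neither gene was a difference detectable at this spread.

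The models were compared directly by a contrast of their differences, 2 doses of antibody minus PD-1cKO. Ncr1 differed by 1.82 (SE 0.55, adjusted p 0.12), Klrk1 by 1.53 (SE 0.50, adjusted p 0.153) and Klrb1c by 1.49 (SE 0.40, adjusted p 0.0768), with the higher value for antibody each time. Klrc1 (0.94, adjusted p 0.443), Klrd1 (0.74, adjusted p 0.548) and Nkg7 (1.01, adjusted p 0.30) differed by less, and Klrc2 by -0.04 (adjusted p 0.982). No member was called by limma, where 0.0975% of 16404 genes were. Differences between the models in the changes of Klrk1, Ncr1 and Klrb1c were thus not established. The models also differ in implant day, library composition and treatment as well as in how PD-1 was lost.

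Ratios within a tumor depend little on the scaling of the libraries for genes well above the 0.1 FPKM added before the log2, though Ncr1 is close to it, and they test directly whether the receptors shared with CD8 T cells moved more than Ncr1. After 2 doses of PD-1 Ab the log2 ratio to Ncr1 was higher in every treated tumor than in every control for Klrc1 (difference 1.40), Klrd1 (1.41) and Nkg7 (1.59), as it was for Cd8a (1.70), each with an exact permutation p of 0.00794 (2-sided, 252 splits, the smallest they can give, unadjusted like all permutation p here). By limma over all genes, Klrd1 (adjusted p 0.00984) and Nkg7 (0.00564) were called and Klrc1 (0.0111) was not. In this fit limma set the error of each gene from genes of similar level. Its adjusted p therefore does not measure the spread of that ratio between tumors. Both calls were lost without isotype control replicate 2, 3, 4 or 5 or without PD-1 Ab replicate 1, 2, 3 or 4, with limma adjusted p up to 0.0366 for Klrd1 and 0.0286 for Nkg7, while the differences stayed between 1.15 and 1.60 and between 1.25 and 1.92. Klrc1 was called without isotype control replicate 1 or PD-1 Ab replicate 5. Of all genes, 0.352% were called higher relative to Ncr1. The share of all genes whose ratio to Ncr1 did not overlap between the groups was not counted. The lack of overlap for Klrc1, Klrd1 and Nkg7 is therefore no mark of them. The ratio of Klrk1 to Ncr1 differed by 0.51 (exact permutation p 0.159), that of Klre1 by 0.82 (p 0.23) and that of Cd7 by 0.27 (p 0.587). For Klrb1c (-0.01), Klrg1 (-0.03) and Klrc2 (-0.15) the differences were smaller, with exact permutation p from 0.762 to 0.984. Since Ncr1 lies under 1 FPKM in most tumors, its own error enters each of these ratios at once, so the ratios are not independent of each other. With 1 FPKM added in place of 0.1, limma called 5 members relative to Ncr1. That constant exceeds Ncr1 in most tumors, and the log2 difference of Ncr1 itself then fell from 1.36 to 0.49. These calls therefore do not test whether a member moved more than Ncr1.

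In the PD-1cKO model the ratio to Ncr1 rose for 5 members. Klrd1 gained 2.50 (limma adjusted p 7.19e-05), Nkg7 2.40 (5.29e-05), Klrc1 2.29 (0.000228), Klrc2 1.71 (0.00509) and Klre1 1.56 (0.00559). By this measure 7.04% of all genes were called higher. Klrc2 and Klre1 passed the filter on low values only through the PD-1cKO group, where they are high, so their calls are no independent support. Ncr1 itself passed the filter in neither group. It was 0 FPKM in PD-1cKO replicate 10, where each ratio rests on the 0.1 FPKM added. The calls for Klrc2 and Klre1 were lost without PD-1cKO replicate 6 or 8 or WT replicate 1, 2, 4, 7 or 10, the first also without WT replicate 5 and the second without WT replicate 9, with adjusted p up to 0.0152 for Klrc2 and 0.0165 for Klre1. Permutation tests with 100000 resamples gave p of 0.00012 for Klrd1, 6e-05 for Nkg7 and 0.00022 for Klrc1. The ratio of Klrk1 to Ncr1 differed by 0.80 (limma adjusted p 0.204, permutation p 0.0507) and that of Klrb1c by 0.33 (0.694, permutation p 0.231). With the run of identifiers as a covariate no member was called relative to Ncr1.

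Against Cd8a, the smallest shifts in both models were those of Nkg7, Klrd1 and Klrc1. After 2 doses the log2 ratio to Cd8a changed by -0.11 for Nkg7 (95% interval -1.02 to 0.81), -0.29 for Klrd1 (-1.21 to 0.63) and -0.30 for Klrc1 (-1.24 to 0.64), with exact permutation p of 0.619, 0.0317 and 0.175, so that by this test the ratio of Klrd1 to Cd8a was slightly lower. In the PD-1cKO model it changed by 0.05 for Nkg7 (-0.43 to 0.53), 0.14 for Klrd1 (-0.40 to 0.69) and -0.07 for Klrc1 (-0.64 to 0.51), with permutation p of 0.716, 0.531 and 0.788. The PD-1cKO intervals bound these shifts, and none of the intervals shows that the ratios were equal. After 2 doses limma set the error of these ratios from genes of similar level, so its intervals do not show the tumors' own spread. The SD of the log2 ratio was 0.22 with PD-1 Ab and 0.082 in the controls for Klrd1, and 0.071 and 0.32 for Nkg7. Limma called 5 members lower relative to Cd8a after 2 doses (Klrc2, Klrg1, Klrb1c, Ncr1 and Cd7, by -1.85 to -1.43) and 4 in the PD-1cKO model (Klrb1c -2.03, Klrg1 -1.57, Klrk1 -1.55 and Cd7 -1.36). Since Cd8a was among the genes that rose most, 96.1% and 93.2% of all genes were called relative to it, so these calls are no mark of the members.

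The ratio of Klrk1 to Cd8a moved without overlap in both models, but by less than that of the median gene. Over all genes tested the median log2 change relative to Cd8a was -3.10 after 2 doses and -2.10 in the PD-1cKO model. The share of all genes whose ratio did not overlap was not counted, so the shift is no mark of Klrk1. Limma did not call Klrk1 relative to Cd8a after 2 doses (adjusted p 0.0113). In median it was 1.31 FPKM per FPKM of Cd8a in the isotype control tumors and 0.564 after 2 doses of PD-1 Ab (log2 difference -1.19, exact permutation p 0.00794). In WT tumors the ratio was 0.966 in median and 0.377 in PD-1cKO tumors, where all 10 lay below every WT tumor (-1.55, permutation p 2e-05, the smallest that the resamples can give). The ratio of Ncr1 to Cd8a had a median of 0.142 in WT and 0.0208 in PD-1cKO tumors (log2 difference -2.36, permutation p 0.00012). For Nkg7 the group medians of the ratio ranged from 1.41 to 2.29 over all 7 tumor groups.

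**Figure D3:**
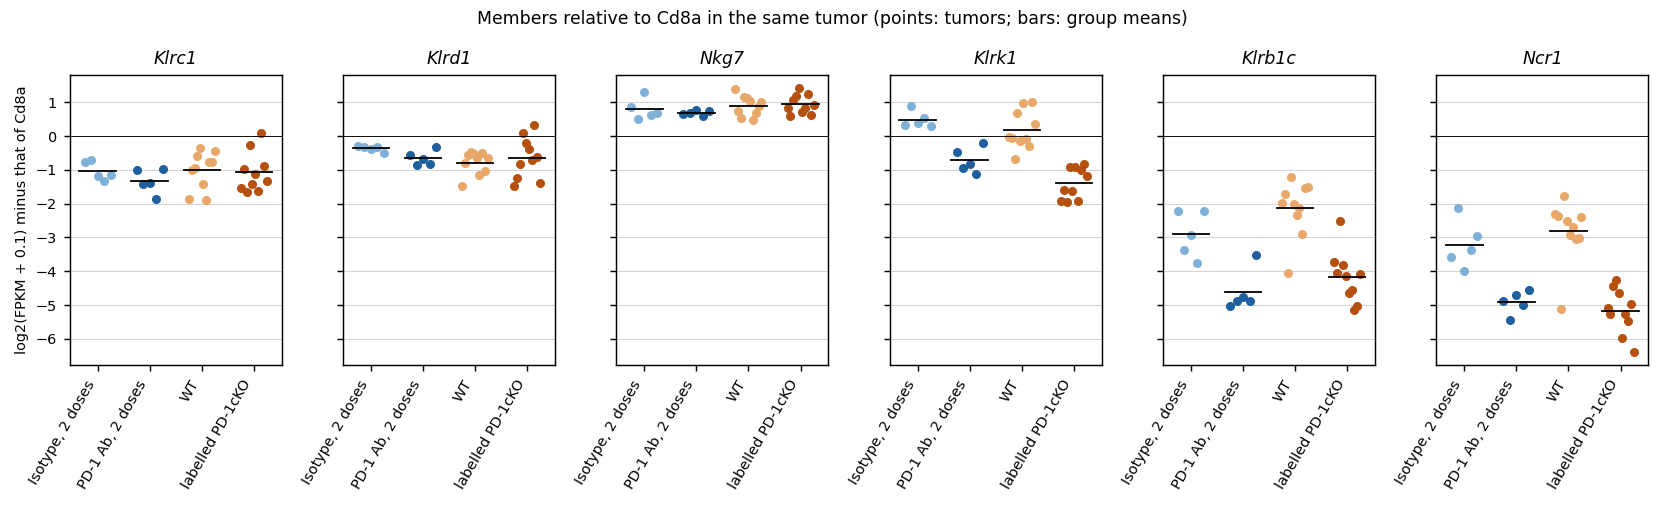
Log2 ratio of FPKM to that of Cd8a in the same tumor (0.1 added to each) for 6 members, in the 2-dose isotype control and PD-1 Ab tumors and in WT and PD-1cKO tumors, with a point per tumor and a bar at the group mean. The points of Nkg7, Klrd1 and Klrc1 overlap between the groups of each comparison, and those of Klrk1, Ncr1 and Klrb1c lie mostly lower after 2 doses of PD-1 Ab and in PD-1cKO tumors.

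Lists of other genes of the same cells and pathway were read by counts. All 13 T-cell lineage genes rose after 2 doses (median log2 fold change 2.52, all genes tested -0.04), with Cd8b1 at 3.34, Cd8a at 3.06 and the CD3 chain gene Cd3g at 2.95, and all 13 rose in the PD-1cKO model (median 1.69, all genes -0.20), with Cd8b1 at 2.07, Cd3e at 1.96 and the T-cell receptor gene Trbc2 at 1.92. Of the 16 NK-cell lineage genes, 11 were tested after 2 doses and 4 rose (median 1.36): Cd226 by 2.67, the interleukin receptor chain Il2rb by 2.55, Klra3 by 2.49 and Klri2 by 1.75. Cd226 and Il2rb are also genes of activated T cells. In the PD-1cKO model 1 of 10 tested NK-cell genes rose, Il2rb by 1.67 (median 0.66). The summed FPKM of the T-cell list was 24.6 to 42.4 in the isotype control tumors and 75.9 to 324 after 2 doses, and that of the NK-cell list was 47.3 to 69.3 and 80.2 to 106. The NK-cell sum is not specific to NK cells, since Klra4 gave 22.4 to 24.6 FPKM in the MC-38 cultures, where 12 of the 16 NK-cell genes, Ncr1 and Klrb1c among them, were at 0.

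Genes of the killing machinery and of receptor signalling rose in the same comparisons. Of 8 tested cytotoxic granule genes, 6 rose after 2 doses (median 2.46), among them Gzmk by 4.30, the perforin gene Prf1 by 3.55 and Gzmb by 3.0, and 5 rose in the PD-1cKO model (median 1.52), with Gzmk at 2.62 and Ctsw and Prf1 at 1.73 each. Of 14 tested adaptor and signalling genes, 11 rose after 2 doses (median 1.36) and 6 in the PD-1cKO model (median 0.72). They were led in the first by Zap70 (2.21), the NKG2D adaptor Hcst (2.04) and Sh2d1a (1.96), and in the second by Zap70 (1.90), Hcst (1.82) and Cd247 (1.79). Several of these genes serve T cells and myeloid cells too. After 1 dose no gene of any list was called.

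On the ligand side, H2-T23, which encodes the Qa-1 chain read by the CD94 receptors, rose in both comparisons. It was 54.5 to 113 FPKM in the isotype control tumors and 164 to 268 FPKM after 2 doses (log2 fold change 1.52, limma adjusted p 0.00101). In the PD-1cKO model it was 79.1 to 127 FPKM in WT and 130 to 286 FPKM in PD-1cKO tumors (1.04, adjusted p 0.000414), so neither comparison overlapped. In the cultures it was 2.08 to 2.41 FPKM. Of the 8 ligand genes tested in each comparison, the other gene that rose was Sectm1a, a CD7 ligand, after 2 doses (1.34). The medians of the list were 0.63 and -0.61.

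Some of Klrg1, Cd7 and Nkg7 can also come from regulatory T cells or plasmacytoid dendritic cells. Markers of these cells and of mast cells were read beside them. After 2 doses 5 of 11 tested markers rose, including the mast cell genes Cpa3 (3.04), Cma1 (2.71) and Mcpt4 (2.33), and the summed FPKM of the 12 was 199 to 435 in controls and 390 to 500 with PD-1 Ab. In the PD-1cKO model 1 of 10 rose (Ctla4, 1.22), with sums of 174 to 264 in WT and 101 to 291 in PD-1cKO tumors. These sums are not specific to the 3 cell types, since the MC-38 cultures had 82.8 to 85.6 FPKM. In the 2-dose comparison Bst2, which was not called, made up most of the sum. It averaged 274 FPKM in the controls and 374 FPKM with PD-1 Ab. No marker of the list was at 0 in all tumors of a group, and the part of these cells in the member values was not tested. Of the gamma-delta and innate-like T-cell genes, 0 of 2 tested rose after 2 doses, and 2 of 3 in the PD-1cKO model: Zbtb16, the factor of invariant NK T cells, by 1.59, and Tcrg-C2 by 1.39.

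Likeness was described by the correlation of log2 levels over the 43 tumors, as deviations from the group means, against 14863 genes. These points share tissue composition and library, so no test is given. The 3 genes most like Nkg7 were Trbc2 (Pearson r 0.93), Gimap3 (0.92) and Cd8a (0.91). Those most like Klrd1 were Gimap3 (0.92), Ms4a4b (0.90) and Klrc1 (0.89), and those most like Klrc1 were Ptpn22 (0.91), Cxcr6 (0.89) and Klrd1 (0.89). Klrk1 was closest to Ms4a4b (0.88), Cxcr6 (0.87) and Il18r1 (0.86), and Klrc2 to Mctp2 (0.87), Klrd1 (0.85) and Gimap3 (0.85). Klre1 had Gimap3 (0.81) and Cd3g (0.80) among its closest genes. Trbc2 and Cd3g are T-cell genes, and Gimap3 and Ms4a4b are expressed by lymphocytes.

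The remaining members had other neighbours. Ncr1 was closest to Klra7 (0.75), an Ly49 receptor of NK cells, then Pira2 (0.71) and P2rx4 (0.71). Klrb1c had Fcgr2b (0.78) and Fcgr3 (0.76) among its closest genes, which are genes of phagocytes, Fcgr3 also of NK cells. Klrg1 was closest to Gprc5c (0.79), Ly6c2 (0.76) and Gtpbp10 (0.74), and Cd7 to Col8a2 (0.66), Cd4 (0.66) and Tbc1d10c (0.63). Among Klrc1, Klrc2, Klrd1, Klrk1, Klre1 and Nkg7 the 15 pairs had r of 0.65 to 0.89, and with Cd8a these 6 had 0.74 to 0.91. With Ncr1 they had 0.43 to 0.58 and with Klrb1c 0.14 to 0.38. Klrb1c and Ncr1 are also among the lowest members, and the part of their low level in these values was not tested.

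**Figure D4:**
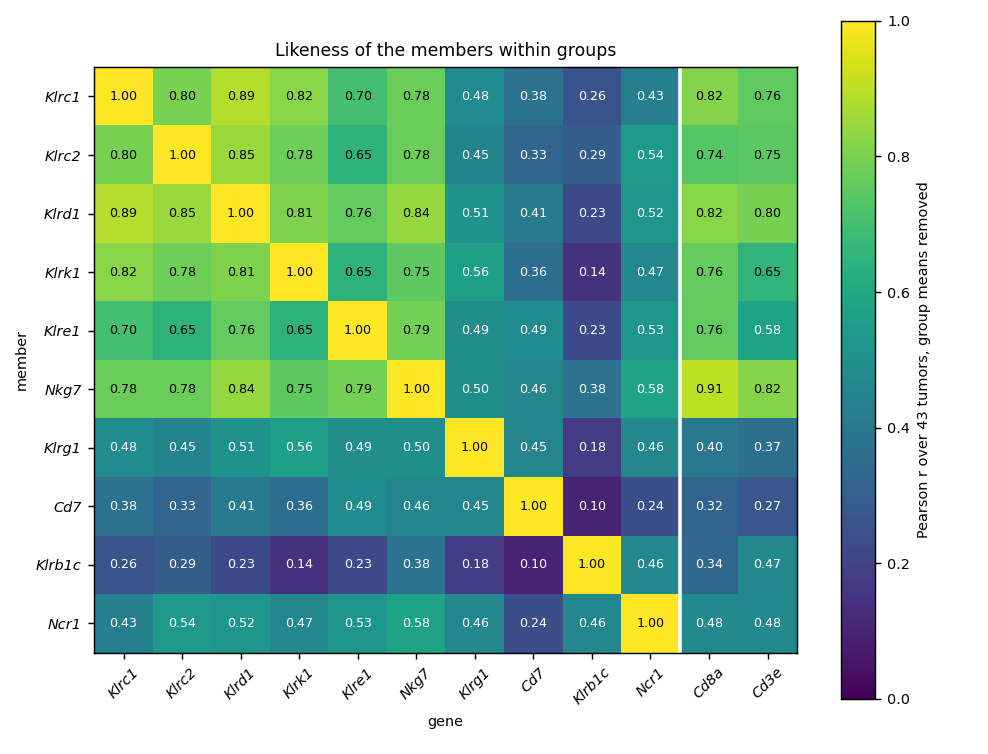
Pearson r of each member with the other members, Cd8a and the T-cell gene Cd3e over the 43 tumors, as deviations of log2(FPKM + 0.1) from group means, with color for r. Klrc1, Klrc2, Klrd1, Klrk1, Klre1, Nkg7 and Cd8a form a block at 0.65 or above, and Klrb1c stands apart with 0.14 to 0.38 against the 6 members of the block.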

How the data were processed

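RNA from 3 cultures and 43 tumors was measured by RNA-seq, and the sample labels gave every group. The authors prepared stranded, ribosome-depleted total RNA libraries, read paired ends of 50 bases, aligned them to Mouse.B38 with OSA in Omicsoft Array Studio (at most 2 mismatches) and deposited FPKM of Ensembl release 86 genes. The submitters tested counts, which FPKM does not give back. The methods state mapped reads only as a range over all samples, so no depth per sample was used and precision is the spread between tumors. In the 2-dose fits of ratios to Ncr1 or Cd8a limma took the error from genes of similar level instead. The labels do not name cultures or litters behind replicates. Symbols and coordinates came from GENCODE M21 (99.1% of IDs matched).

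FPKM were used as deposited on a log2(FPKM + 0.1) scale. Genes that averaged 0.5 FPKM or more in a group compared were fitted with limma 3.58.1 (R 4.3.3, lmFit and eBayes with a trend) on the groups compared alone, with Benjamini-Hochberg adjustment over all genes tested, and called at an adjusted p under 0.01 and, for comparisons of 2 groups, at least 2-fold. Differences of differences and log2 ratios to Ncr1 or Cd8a had no fold limit. Ratios and untested members were read by 2-sided permutation tests (exact for 5 against 5, 100000 resamples for 10 against 10), which for the ratios were added after seeing the data. The code was tested on simulated data. All members, Cd8a and Pdcd1 are named, up to 3 called genes of each list and comparison with the largest change (the fourth NK-cell gene was added after its values were seen), called genes whose symbol begins with Klr, and the 3 genes most like each member, some of which are not reported here. The members and lists were chosen with earlier results of these data known. Alternatives were log2(FPKM + 1), no filter or one at 1 FPKM, scaling by median of ratios or by upper quartile, array weights, no trend in eBayes, a block for the replicate number, a fit over all 7 tumor groups, the run of identifiers as a covariate, and each replicate left out. Files were read with Python 3.11.15, pandas 2.3.3, numpy 2.4.6 and scipy 1.17.1, and plotted with matplotlib 3.10.9.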

Additional observations from a re-analysis of the deposited data

Results flagged for a closer look

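In 60 groups of member values, 8 had 1 tumor that stood far from the rest. Its gap to the nearest other tumor was a large share of the range of its group (above the 95% critical value of Dixon's ratio). The ratio was taken on FPKM and not on the log2 scale, and each of the 8 was the highest value of its group. The rate of about 1 in 20 groups holds for normally distributed values, which FPKM need not be. The 8 are therefore descriptions and do not count as an excess over chance. WT replicate 3 accounts for 4 of them. It had 7.83 FPKM of Klrd1, where the next WT tumor had 2.62, 5.95 FPKM of Klrc1 (next 3.0), 1.24 FPKM of Klrc2 (next 0.421) and 17.1 FPKM of Nkg7 (next 8.50). The same tumor was the highest WT tumor for Cd8a, with 11.6 FPKM, and for Pdcd1, with 7.02 FPKM, while its Ncr1 was 0.236 FPKM, below the WT median of 0.480 FPKM. WT replicate 4 had 1.01 FPKM of Cd7, where the next had 0.576. In the PD-1cKO group, replicate 8 had 2.04 FPKM of Cd7 (next 1.16) and replicate 4 had 0.874 FPKM of Ncr1 (next 0.463). Among the 2-dose isotype control tumors, replicate 4 had 0.538 FPKM of Klrc2 (next 0.271). Cd7, Ncr1 and Klrc2 are low in most tumors.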

How the results depend on the processing

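No member changed direction with a call under any alternative. After 2 doses of PD-1 Ab 6 members were called, 10 with array weights, 3 with the replicate block (without Klrk1, Klre1 and Cd7), 4 with no filter (without Klre1 and Cd7) and 4 to 7 when each replicate was left out. After 1 dose there were 0 to 0 when each replicate was left out. For PD-1cKO against WT 3 were called, 0 with the run of identifiers as a covariate, 2 with the replicate block (without Klrc1, adjusted p 0.0103) and 3 to 4 with each replicate left out. For the difference between the models 0 were called, 4 with array weights and 0 to 0 with each replicate left out, and for the difference between doses 0, 2 and 0 to 0. Relative to Ncr1 after 2 doses 2 were called, 5 with log2(FPKM + 1), 1 with no filter, 5 with array weights, 0 with the replicate block and 0 to 3 with each replicate left out, and in the PD-1cKO model 5, 0 with the run as a covariate and 3 to 5 with each replicate left out. Relative to Cd8a after 2 doses 5 were called, 1 with the filter at 1 FPKM and 1 to 6 with each replicate left out, and in the PD-1cKO model 4, 1 with that filter, 1 with the run as a covariate and 4 to 5 with each replicate left out. A filter at 1 FPKM tests fewer members. For the other moves the cause was not tested. The share of all genes called under each alternative is not printed here. A count of members under an alternative therefore shows no excess over all genes.

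The replicate number does not pair the samples. Same-numbered tumors had correlated deviations of -0.21 to 0.04 over the 5 pairs of the 2-dose comparison, -0.17 to 0.16 after 1 dose and -0.19 to 0.11 in the PD-1cKO model. Depth per sample is unknown, so the counting error behind members under 1 FPKM cannot be given.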

Other observations

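Other genes named Klr, 23 in the table, were read by the same fit. After 2 doses of PD-1 Ab 4 of 10 tested rose: Klra3 by 2.49, Klri2, the partner of Klre1, by 1.75, Klra2 by 1.24 and Klrb1b by 1.10. In the PD-1cKO model 0 of 9 rose and 1 fell, Klrb1b, an inhibitory receptor of the NK1.1 family. Klrb1b was 6.54 to 14.8 FPKM in the isotype control tumors and 17.1 to 28.5 FPKM after 2 doses of PD-1 Ab, without overlap (limma adjusted p 0.00805). In WT tumors it was 4.21 to 10.6 FPKM and in PD-1cKO tumors 1.17 to 7.06 FPKM, a log2 difference of -1.15 (SE 0.29, adjusted p 0.00534) where the median of all genes was -0.20. The contrast between the models for Klrb1b was 2.25 (SE 0.47, 95% interval 1.30 to 3.21, adjusted p 0.0231), which did not pass at 0.01, and the models are also separate sets of libraries. In the cultures Klrb1b was listed at 0.

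The MC-38 cultures held RNA of a pair of genes used as immune markers. Klra4, listed as an NK-cell gene, was 22.4 to 24.6 FPKM in the 3 cultures and had medians of 20.1 to 52.7 FPKM over the tumor groups. Foxp3, a marker of regulatory T cells, was 0.956 to 1.10 FPKM in the cultures. Neither can be read as a measure of those cells in these tumors.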
